A study of Mus musculus with 24 samples.

Results

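A/J and NOD/ShiLtJ are inbred albino mouse strains, and their retinas were compared here gene by gene. The members are the 3 A/J and 3 NOD/ShiLtJ libraries, chosen by the strain in the sample labels, 6 of the 24 libraries of the series. The series holds retinas of 8 inbred strains that founded the Collaborative Cross, with 3 libraries each, and asks how genetic background relates to refraction, myopia and contrast sensitivity. All mice were wild type and were sampled at postnatal day 28. Total RNA was depleted of ribosomal RNA and made into stranded libraries, and the study counts each library as a biological replicate. Values are read counts scaled to the library's total (cpm), and differences are A/J minus NOD/ShiLtJ on the log2(cpm + 1) scale, which understates changes of low genes. The value after ± is the SE for a difference and the SD for a level, with n = 3 per strain. By the size of 1 read, the depth was 76303000, 61769000 and 63205000 reads in A/J replicates 1, 2 and 3 and 76172000, 74452000 and 71688000 reads in NOD/ShiLtJ replicates 1, 2 and 3.

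The retina turns light into nerve signals in rods and cones, passes them through bipolar cells under the control of horizontal and amacrine cells, and sends them to the brain through ganglion cells, with Müller glia supporting all layers. Inbred strains come from many generations of brother-sister mating, so that animals of a strain are nearly identical while strains differ in sequence. In bulk tissue, fewer cells of a type and less RNA per cell cannot be told apart. The labelled tissue matched its markers, since Gnat1, the alpha subunit of rod transducin, stood at 1697, 1761 and 1783 cpm in A/J and 2275, 1865 and 2138 cpm in NOD/ShiLtJ.

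Lens RNA was present in 1 library. The summed level of 25 lens genes was 2686 cpm in NOD/ShiLtJ replicate 2 and lay between 18.3 and 30.7 cpm in the other 5 libraries. All 23 lens genes that were tested were highest in that library among the 6, and 22 of them were more than 10 times higher there than in any of the other 5. The filter for testing averages over the 6 libraries, so a lens gene could pass it through that library alone. The most abundant lens gene outside it, Cryab, was at 235 cpm in NOD/ShiLtJ replicate 2 and at 5.47 to 6.05 cpm in the other 5. By limma 0 lens genes were called, against 11.4% of all genes tested. The high values of that library widen the spread within NOD/ShiLtJ, which works against a call. Among lens genes 0 had an unadjusted p under 0.05, and 1 was called without that library. In NOD/ShiLtJ replicate 3 the sum of 12 genes of oligodendrocytes and optic nerve was 80.6 cpm, against 14.1 to 20.1 cpm in the others, and Mbp, a myelin protein and the most abundant of them, was at 33.4 cpm there and 8.11 to 12.3 cpm elsewhere. Sums for pigment epithelium were 102 to 166 cpm in A/J and 121 to 135 cpm in NOD/ShiLtJ, led by Otx2, which bipolar cells and photoreceptors also express. Blood genes summed to 21.5 to 25.02 and 24.6 to 30.8 cpm, genes of ciliary body and iris to 16.5 to 27.2 and 13.4 to 15.7 cpm, and muscle genes to 2.88 to 5.47 and 3.02 to 3.20 cpm. None of these lists had a member without reads in all 6 libraries. The part of these tissues in the results was not tested beyond leaving out each library.

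A/J retinas held 3.55 times as much RNA of Glo1, a glyoxalase, and 3.46 times as much of Cep78, a centrosomal protein, as NOD/ShiLtJ retinas by the means of 3 libraries. They held less of Samd11, a nuclear protein of photoreceptors, which was 3.55 times higher in NOD/ShiLtJ. Clustered protocadherins that passed the test were all higher in A/J. Of 15765 autosomal and mitochondrial genes whose average over the libraries reached 0.5 cpm, 1804 (11.4%) differed between the strains at a Storey q-value under 0.01 in limma's moderated test, 790 (5.01%) of them higher in A/J and 1014 (6.43%) higher in NOD/ShiLtJ. Most of these differences were small. The median absolute difference of the called genes was 0.41, 1159 (64.2%) were below 0.5, and 159 (1.01% of genes tested) reached 1, 75 (0.476%) higher in A/J and 84 (0.533%) higher in NOD/ShiLtJ. The libraries of the strains did not overlap for any of the 1804, and over all genes tested they did not overlap for 5527 (35.1%). Over all genes tested the median difference was -0.0141. The count fell to 973 without A/J replicate 2 and to 1064 without NOD/ShiLtJ replicate 1. It was 1737 without NOD/ShiLtJ replicate 2, the library with lens RNA, and 1503 of the 1804 (83.3%) were among these. In all 6 fits without 1 library 901 genes (5.72%) were called, 388 (2.46%) higher in A/J and 513 (3.25%) higher in NOD/ShiLtJ. Of the 159 genes past the size limit, 156 were called in all 6 and 159 without the library with lens RNA.

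The largest differences in the direction of A/J were led by Slc28a1, a concentrative transporter of pyrimidine nucleosides (chromosome 7, 81114799 to 81170417 on GRCm38). Its A/J libraries held 16.5, 15.98 and 7.96 cpm, and the NOD/ShiLtJ libraries 0.0395, 0.0135 and 0.0001 cpm, the last being the constant that stands for no reads. A/J was high in all 3 replicates, replicate 3 lay below the others, and the difference was 3.77 ± 0.21, q = 1.11e-06. None of the 18 libraries of the other 6 strains exceeded 0.0419 cpm, so Slc28a1 was near the limit of detection in every strain but A/J. Catspere1, a subunit of the sperm calcium channel CatSper (chromosome 1, 177808431 to 177962679), was at 6.38, 7.40 and 7.37 cpm in A/J and 0.0001, 0.0001 and 0.0574 cpm in NOD/ShiLtJ (2.98 ± 0.07, q = 2.70e-09). It ranged from 0.0001 to 38.6 cpm over the other strains, and 36.7% of its 31-base words occur in other genes. Cyp4f13, a cytochrome P450 of the fatty acid hydroxylase family (chromosome 17, 32924688 to 32947403), was at 9.61, 8.43 and 7.45 cpm in A/J and 0.486, 0.712 and 0.544 cpm in NOD/ShiLtJ (2.58 ± 0.09, q = 3.88e-08). The other strains held Cyp4f13 at 1.64 to 6.58 cpm, between the strains compared. The alpha-tubulin gene Tuba1c (chromosome 15, 99029891 to 99038111) was at 5.79 ± 0.0762 cpm in A/J and 0.501 ± 0.112 cpm in NOD/ShiLtJ with a difference of 2.18, and shares 55.3% of its 31-base words with other genes.

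In the direction of NOD/ShiLtJ, Spc25 stood first, a subunit of the kinetochore complex that holds chromosomes to the spindle (chromosome 2, 69193895 to 69206195). Its values were 0.459, 0.389 and 0.332 cpm in A/J and 36.2, 36.3 and 33.2 cpm in NOD/ShiLtJ, a difference of -4.70 ± 0.06, q = 1.82e-10. Spc25 shares none of its sequence with another gene in the annotation and ranged from 0.201 to 39.6 cpm over the other strains. Tgm3, a transglutaminase that cross-links proteins of the epidermis (chromosome 2, 130012349 to 130050400), was at 0.0656, 0.0487 and 0.0159 cpm in A/J and 6.56, 5.98 and 6.19 cpm in NOD/ShiLtJ (-2.80 ± 0.07, q = 1.72e-09). All 3 NOD/ShiLtJ libraries lay above the other 21, which reached at most 3.37 cpm. The axonemal dynein heavy chain Dnah7b (chromosome 1, 46066315 to 46373551) was at 11.3, 10.6 and 10.8 cpm and 42.6, 44.6 and 44.3 cpm (-1.91 ± 0.05, q = 2.21e-09), with 40.1% of its 31-base words shared.

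**Figure D1:**
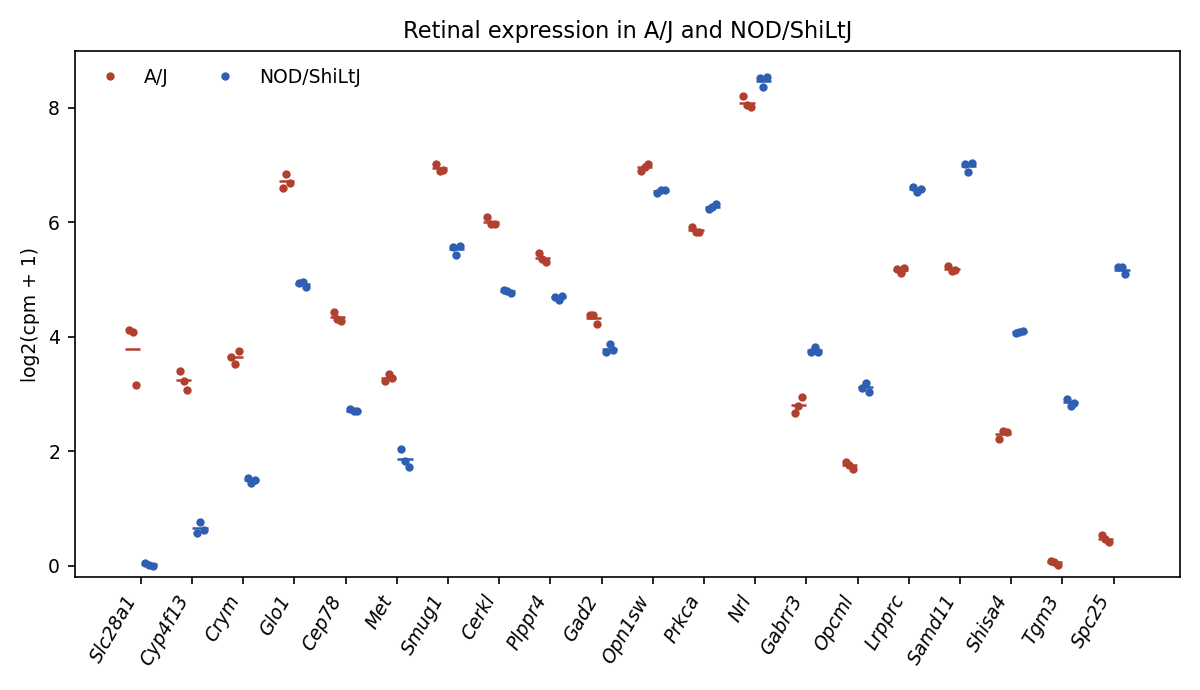
Retinal level of 20 genes on the log2(cpm + 1) scale, with 1 point per library, A/J in red and NOD/ShiLtJ in blue, and lines at the means of 3 libraries. The genes shown were picked among called genes, none of which overlap between the strains, while 35.1% of all genes tested do not overlap. They run from Slc28a1, at up to 16.5 cpm in A/J, to Spc25, at up to 36.3 cpm in NOD/ShiLtJ.

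Several of the largest differences were in genes with a near-identical copy, between which the counting model divides reads. Rps3a1, a protein of the small ribosomal subunit (chromosome 3, 86137940 to 86142703), was at 0.587, 0.694 and 0.683 cpm in A/J and 15.3, 15.8 and 15.1 cpm in NOD/ShiLtJ (-3.31 ± 0.06, q = 6.22e-10). The processed copy Rps3a3 (chromosome 13, 108670603 to 108671398) showed the opposite, at 13.9, 16.3 and 17.4 cpm in A/J against 0.462, 0.702 and 0.591 cpm in NOD/ShiLtJ (3.41 ± 0.09, q = 4.65e-09). The sum of Rps3a1 and Rps3a3 was 16.5 ± 1.86 cpm in A/J and 16.0 ± 0.434 cpm in NOD/ShiLtJ, a difference of 0.04, so the strains differed in each copy and hardly in the sum. Hmga1, a chromatin protein of the high mobility group (chromosome 17, 27556497 to 27563675), was at 1.27 ± 0.229 cpm in A/J and 9.20 ± 0.702 cpm in NOD/ShiLtJ, with a difference of -2.17. Its copy Hmga1b (chromosome 11, 120762794 to 120764420) was at 13.98 ± 0.550 cpm in A/J and 6.20 ± 0.183 cpm in NOD/ShiLtJ, with a difference of 1.06. Hmga1 and Hmga1b together gave 15.3 ± 0.570 and 15.4 ± 0.595 cpm, a difference of -0.01. Rpl26, of the large ribosomal subunit (chromosome 11, 68901583 to 68906990), was at 1.06, 1.03 and 0.921 cpm in A/J and 15.97, 13.2 and 15.2 cpm in NOD/ShiLtJ (-2.98 ± 0.08), and 27.1% of its 31-base words are shared. Of the 159 genes past the size limit, 150 could be matched to the annotation, and 75 of these (50%) shared over 25% of their 31-base words with another gene, against 16.8% of the 1597 matched called genes below the limit. Values of genes with shared sequence are uncertain, and Rps3a3 and Hmga1b were picked out after their values were seen.

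Gm14399, a zinc finger gene (chromosome 2, 175129493 to 175142013), was at 19.6, 20.8 and 20.3 cpm in A/J and 1.68, 1.58 and 1.52 cpm in NOD/ShiLtJ (3.04 ± 0.06, q = 6.49e-10). Its neighbour Gm14443 (chromosome 2, 175166255 to 175175872) was at 12.1 ± 0.829 cpm in A/J and 0.664 ± 0.0505 cpm in NOD/ShiLtJ (2.97 ± 0.07). Gm14403, within the same 5 Mb (chromosome 2, 177498215 to 177509764), went the other way, at 2.77 ± 0.0839 cpm in A/J and 16.7 ± 1.79 cpm in NOD/ShiLtJ (-2.22 ± 0.08). Zinc finger genes of the same window thus differed in opposite directions. In the window of chromosome 2 from 175000001 to 180000000 that holds these genes, 19 of 48 tested genes were called (39.6% against 11.4% of all genes), 7 of them higher in A/J. On chromosome 4, Zfp982 (147492417 to 147513487) was at 6.05, 6.07 and 6.15 cpm in A/J and 0.158, 0.255 and 0.0838 cpm in NOD/ShiLtJ, and Zfp990 (145510759 to 145539189) at 0.0525, 0.0972 and 0.137 and 8.91, 8.83 and 8.02 cpm. Their differences were 2.61 ± 0.07 and -3.13 ± 0.07. Between 29.7% and 81.9% of the 31-base words of these genes occur elsewhere, and their values are uncertain to that extent.

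Among genes past the size limit, Samd11, Cerkl, Cep78, Crym, Opcml, Lrpprc, Shisa4, Smug1, Met, Piezo1 and Col5a1 were singled out after their values were seen. Samd11, a nuclear protein of photoreceptors (chromosome 4, 156246966 to 156255658), was at 36.7, 34.5 and 34.9 cpm in A/J and 129, 117 and 131 cpm in NOD/ShiLtJ (-1.80 ± 0.05, q = 8.67e-09). A/J lay below all other libraries of the series, which ranged down to 67.4 cpm outside these strains, and 28.5% of the exon bases of Samd11 overlap another gene. Cerkl, a ceramide kinase-like protein linked to inherited retinal degeneration (chromosome 2, 79330543 to 79456786), was at 67.2, 61.9 and 61.6 cpm in A/J and 27.3, 26.9 and 26.2 cpm in NOD/ShiLtJ (1.22 ± 0.05, q = 6.44e-08). Cep78, a centrosomal protein whose loss in humans causes cone-rod dystrophy with hearing loss (chromosome 19, 15955773 to 15984990), was at 20.6, 18.9 and 18.4 and 5.68, 5.49 and 5.52 cpm (1.63 ± 0.06, q = 2.82e-08). The other 6 strains held 10.9 to 22.7 cpm of Cerkl, so both strains lay above them and A/J furthest, and 25.1% of its exon bases overlap other genes. For Cep78 only A/J lay above the other strains, which held 4.18 to 6.43 cpm. Crym, which binds thyroid hormone in the cytosol (chromosome 7, 120186380 to 120202112), was at 11.5, 10.5 and 12.5 cpm in A/J and 1.90, 1.72 and 1.84 cpm in NOD/ShiLtJ (2.15 ± 0.07, q = 2.39e-08). Here NOD/ShiLtJ was the low strain, with 5.85 to 12.7 cpm in the others.

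Opcml, a cell adhesion protein of the neuronal surface (chromosome 9, 27790775 to 28925411), was at 2.53, 2.39 and 2.25 cpm in A/J and 7.67, 8.17 and 7.25 cpm in NOD/ShiLtJ (-1.36 ± 0.07, q = 4.50e-07). The other strains held Opcml at 7.10 to 9.71 cpm, and A/J stood below all of them. Lrpprc, which stabilises mitochondrial messenger RNA (chromosome 17, 84705247 to 84790790), was at 34.9 ± 1.08 cpm in A/J and 94.6 ± 2.65 cpm in NOD/ShiLtJ (-1.41 ± 0.04). Of the 15 mitochondrially encoded genes limma called 0, against 11.4% of all genes, with 2 at an unadjusted p under 0.05. Shisa4 (chromosome 1, 135371057 to 135375238) was at 3.95 ± 0.245 cpm in A/J and 16.03 ± 0.173 cpm in NOD/ShiLtJ (-1.78 ± 0.06). Smug1, a glycosylase that removes uracil from DNA (chromosome 15, 103153290 to 103167093), was at 123 ± 5.33 cpm in A/J and 45.5 ± 2.70 cpm in NOD/ShiLtJ (1.41 ± 0.05). Met, the receptor of hepatocyte growth factor (chromosome 6, 17463800 to 17573981), was at 8.77 ± 0.422 cpm in A/J and 2.67 ± 0.401 cpm in NOD/ShiLtJ (1.42 ± 0.08). These genes, like all called genes, did not overlap between the strains, and they were called in all 6 fits without 1 library. Piezo1, a mechanically gated ion channel (chromosome 8, 122481698 to 122551330), was at 3.68 ± 0.218 cpm in A/J and 0.951 ± 0.177 cpm in NOD/ShiLtJ (1.27 ± 0.08), with 24.6% of its exon bases overlapping another gene. Col5a1, a fibrillar collagen chain (chromosome 2, 27886425 to 28039515), was at 5.12 ± 0.198 cpm in A/J and 13.2 ± 1.01 cpm in NOD/ShiLtJ (-1.22 ± 0.07).

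**Figure D2:**
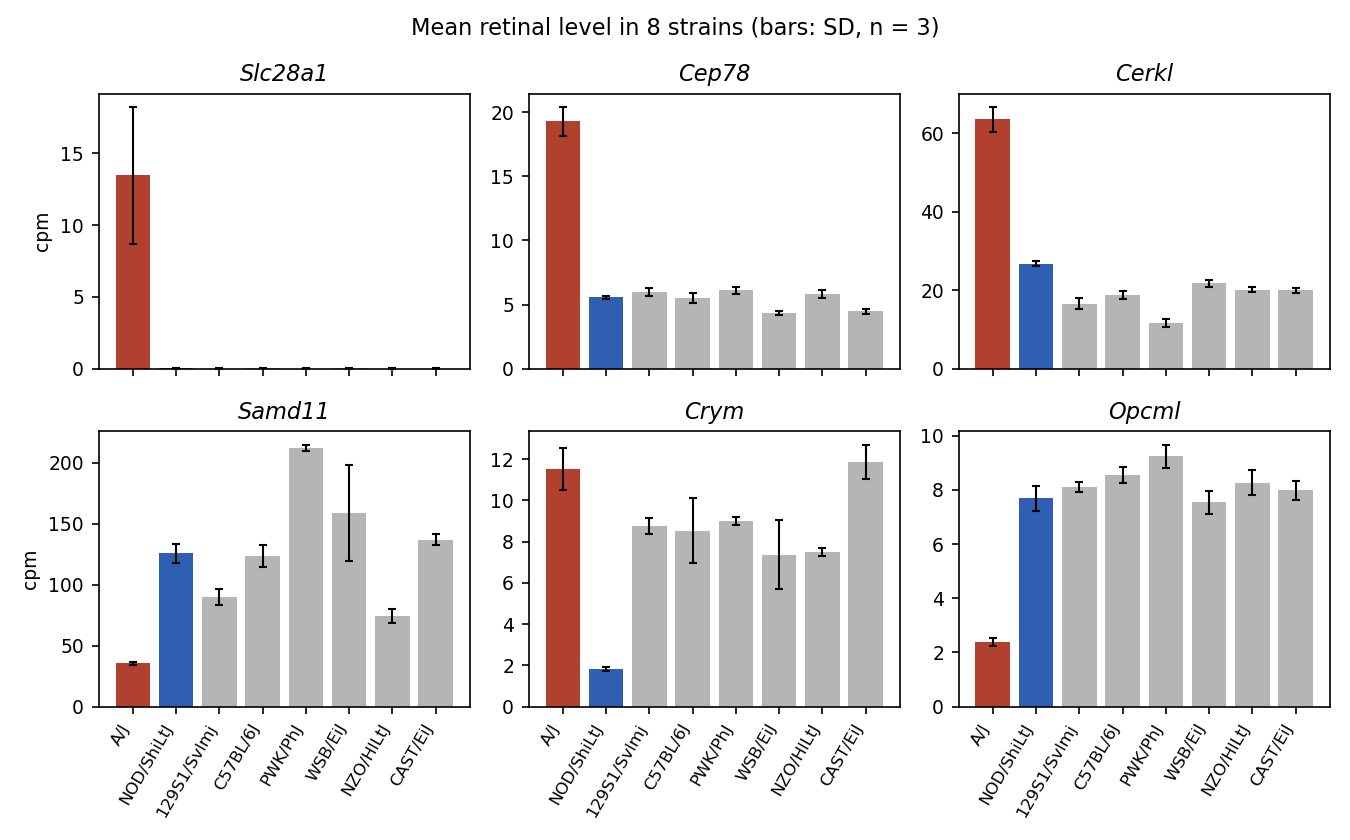
Mean level in cpm of 6 genes in the retinas of 8 strains, with bars for the SD of 3 libraries, A/J in red, NOD/ShiLtJ in blue and the other strains in grey. A/J is the highest strain for Slc28a1, Cep78 and Cerkl and the lowest for Samd11 and Opcml, and NOD/ShiLtJ is the lowest for Crym, at 1.82 ± 0.0938 cpm.

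Set against all 8 strains, the genes past the size limit did not belong to 1 strain. The mean of the other 6 strains lay nearer to A/J for 87 of the 159 genes and nearer to NOD/ShiLtJ for 72. The 3 A/J libraries lay outside the range of the other 21 libraries for 32 genes, above it for 20 and below it for 12. The 3 NOD/ShiLtJ libraries did so for 39 genes, above it for 22 and below it for 17. For 4 genes both strains stood apart, and for 92 neither did.

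Plppr4, a lipid phosphatase-related membrane protein of neurons (chromosome 3, 117319139 to 117360877), was at 43.4, 40.1 and 38.9 cpm in A/J and 25.04, 24.1 and 25.4 cpm in NOD/ShiLtJ. The difference was 0.69 ± 0.05, q = 7.93e-06. Among the related genes, Plppr5 was at 10.3 ± 0.344 cpm in A/J and 8.40 ± 0.729 cpm in NOD/ShiLtJ (0.27, q = 0.0111), Plppr3 at 5.02 ± 0.242 cpm in A/J and 4.34 ± 0.0412 cpm in NOD/ShiLtJ (q = 0.0426), Plppr1 at 1.70 ± 0.0931 cpm in A/J and 1.42 ± 0.191 cpm in NOD/ShiLtJ (q = 0.0965) and Plppr2 at 5.28 ± 0.579 cpm in A/J and 5.28 ± 0.814 cpm in NOD/ShiLtJ (q = 0.520). Only Plppr4 was called among these 5 genes (20%, against 11.4% of all genes and 5.01% in the direction of A/J). Plppr5 was called as well without NOD/ShiLtJ replicate 2 (q = 0.00298).

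Clustered protocadherins are neighbouring genes on chromosome 18 for cell adhesion proteins, from which a neuron expresses a few, so that its surface differs from that of its neighbours. Of 55 tested, 21 were called (38.2%, against 11.4% of all genes and 5.01% in the direction of A/J), all higher in A/J. Their median difference was 0.20, and 45 of the 55 differences were positive. The called genes lay in the beta group (12 of 21, median 0.30) and the gamma group (9 of 22, median 0.26), while limma called 0 of 12 alpha genes (median -0.06, 3 at an unadjusted p under 0.05). Pcdhb17 (37484795 to 37489455) was at 25.2, 27.2 and 29.4 cpm in A/J and 18.6, 17.5 and 17.6 cpm in NOD/ShiLtJ (0.58 ± 0.06, q = 7.50e-05). Pcdhb16 was at 29.5 ± 2.73 cpm in A/J and 19.9 ± 0.269 cpm in NOD/ShiLtJ (0.54). Pcdhga5 (37694380 to 37841874) was at 11.03, 11.8 and 10.96 and 5.89, 6.91 and 7.18 cpm (0.68 ± 0.07, q = 8.72e-05), and Pcdhga8 at 19.4 ± 1.58 cpm in A/J and 11.9 ± 0.482 cpm in NOD/ShiLtJ (0.65). Gamma genes share constant exons, and 45.4% of the exon bases of Pcdhga5 and 55.9% of those of Pcdhga8 overlap other genes, so their values are uncertain and not independent. The count was 17, 17 and 17 without A/J replicates 1, 2 and 3 and 17, 18 and 20 without NOD/ShiLtJ replicates 1, 2 and 3, and 17 were called in all 6 of these fits. With median-ratio scaling or quantile normalization it was 23, again with 45 of 55 differences positive.

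Of 23 rod phototransduction genes, 3 were called (13%, against 11.4% of all genes and 6.43% in the direction of NOD/ShiLtJ), all higher in NOD/ShiLtJ, with a median difference of -0.14 and 18 of 23 below 0. With median-ratio scaling the median was -0.12, again with 18 of 23 below 0, and with quantile normalization it was -7.90e-04, with 10 of 23 above 0. Pde6b, the beta subunit of the rod phosphodiesterase (chromosome 5, 108388391 to 108432398), was at 569, 553 and 577 cpm in A/J and 738, 677 and 719 cpm in NOD/ShiLtJ (-0.33 ± 0.05, q = 6.89e-04). Nrl, the transcription factor that sets rod fate (chromosome 14, 55518978 to 55524982), was at 294, 266 and 257 and 368, 328 and 372 cpm (-0.39 ± 0.07, q = 0.00149). Nrl was lost without 1 library (q = 0.0150 without A/J replicate 2). Gnb5, a subunit of the complex that ends the light response and that also acts in ON bipolar cells (chromosome 9, 75306288 to 75345877), was at 102 ± 2.65 cpm in A/J and 125 ± 1.65 cpm in NOD/ShiLtJ (-0.29 ± 0.04). Gnat1, the alpha subunit of rod transducin, was at 1747 ± 44.5 cpm in A/J and 2093 ± 209 cpm in NOD/ShiLtJ and did not pass (q = 0.0218). The rod count was 4, 2 and 3 without A/J replicates 1, 2 and 3 and 3, 6 and 3 without NOD/ShiLtJ replicates 1, 2 and 3, with 6 called under median-ratio scaling and 4 under quantile normalization.

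Of 12 autosomal cone genes, 3 were called (25%, against 11.4% of all genes and 5.01% in the direction of A/J), all higher in A/J, with a median difference of 0.06. The short-wavelength opsin Opn1sw (chromosome 6, 29376671 to 29388469) was at 118, 125 and 129 cpm in A/J and 90.6, 94.3 and 94.01 cpm in NOD/ShiLtJ (0.41 ± 0.05, q = 1.15e-04). Pde6c, the catalytic subunit of the cone phosphodiesterase (chromosome 19, 38132781 to 38183959), was at 13.8, 13.7 and 13.2 and 11.2, 9.95 and 10.2 cpm (0.35 ± 0.06, q = 0.00127), with q = 0.0113 without A/J replicate 2. Gngt2, the gamma subunit of cone transducin, was at 14.1 ± 0.562 cpm in A/J and 11.4 ± 0.776 cpm in NOD/ShiLtJ (0.29 ± 0.06), with q = 0.0330 without A/J replicate 2, q = 0.0213 without A/J replicate 3, q = 0.0155 without NOD/ShiLtJ replicate 1 and q = 0.0119 without NOD/ShiLtJ replicate 2. The cone count was 3, 1 and 2 without A/J replicates 1, 2 and 3 and 2, 2 and 3 without NOD/ShiLtJ replicates 1, 2 and 3. Of the cone genes on chromosome X, which was left out of the test because sex is not labelled, Arr3, the cone arrestin, went the other way, at 26.2, 28.1 and 25.4 cpm in A/J against 40.0, 36.1 and 39.7 cpm in NOD/ShiLtJ. Opn1mw, the medium-wavelength opsin, was at 15.9, 15.5 and 17.1 cpm and 15.4, 12.9 and 15.0 cpm. With chromosomes X and Y kept, the difference was -0.52 for Arr3 (q = 9.60e-05) and 0.15 for Opn1mw (q = 0.0855), so cone genes did not move in 1 direction.

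Of the 6 called phototransduction genes, 4 have an entry in the RefSeq promoter table (GRCm38.p6). Their promoters are shown because these are the called genes of the light response. Each runs from 250 bases before to 50 after the start. Opn1sw lies on the minus strand (chr6:29380464-29380763), Nrl on the minus strand (chr14:55524203-55524502), Pde6b on the plus strand (chr5:108388123-108388422) and Gnb5 on the plus strand (chr9:75306038-75306337). Capitals mark TAATCC or, for the other strand, GGATTA, the letters of the core site of homeodomain factors such as Crx in photoreceptors. It is found in 1 of these 4 windows, in 2320 of 32851 promoters of this length (7.06%) and in 5.96% of the 13220 promoters of genes tested. A match describes letters only.
Opn1sw: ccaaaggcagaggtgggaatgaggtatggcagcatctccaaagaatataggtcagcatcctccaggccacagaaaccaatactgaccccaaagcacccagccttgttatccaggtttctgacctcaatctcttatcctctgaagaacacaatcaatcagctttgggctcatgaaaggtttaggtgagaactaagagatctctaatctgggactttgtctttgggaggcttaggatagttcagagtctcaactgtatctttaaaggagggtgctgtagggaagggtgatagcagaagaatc
Nrl: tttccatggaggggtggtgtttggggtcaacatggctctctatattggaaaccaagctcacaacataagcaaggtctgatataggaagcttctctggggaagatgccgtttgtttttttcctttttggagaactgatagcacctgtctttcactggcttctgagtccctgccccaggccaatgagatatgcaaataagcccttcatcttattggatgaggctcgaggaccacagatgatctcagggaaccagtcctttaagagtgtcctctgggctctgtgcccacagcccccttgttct
Pde6b: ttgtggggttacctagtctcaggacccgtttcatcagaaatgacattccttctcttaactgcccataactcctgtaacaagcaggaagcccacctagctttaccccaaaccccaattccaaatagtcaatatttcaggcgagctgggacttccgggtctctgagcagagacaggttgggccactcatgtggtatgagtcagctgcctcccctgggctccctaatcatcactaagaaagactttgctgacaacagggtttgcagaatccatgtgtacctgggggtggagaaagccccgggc
Gnb5: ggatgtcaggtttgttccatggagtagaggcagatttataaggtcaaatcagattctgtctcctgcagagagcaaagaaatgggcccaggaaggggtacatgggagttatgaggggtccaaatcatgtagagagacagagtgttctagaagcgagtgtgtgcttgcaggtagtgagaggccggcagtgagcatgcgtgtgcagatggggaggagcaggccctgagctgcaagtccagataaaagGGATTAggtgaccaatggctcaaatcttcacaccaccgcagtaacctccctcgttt

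ON bipolar cells receive glutamate through the receptor mGluR6 and a channel formed by Trpm1. Of 15 genes listed for this complex and its cells, 5 were called (33.3% against 11.4% of all genes), 4 higher in NOD/ShiLtJ and 1 higher in A/J, with a median of -0.09. The 4 include Gnb5 as above, and also Prkca and Pcp2, markers of these cells rather than parts of the receptor or channel. Prkca, the protein kinase that marks rod bipolar cells (chromosome 11, 107933387 to 108343929), was at 59.7, 56.3 and 55.96 cpm in A/J and 74.2, 75.8 and 78.6 cpm in NOD/ShiLtJ (-0.41 ± 0.04, q = 1.02e-04). Both strains lay below the other 6, which held 116 to 194 cpm. Pcp2, a modulator of the G protein, was at 31.7 ± 0.295 cpm in A/J and 36.3 ± 0.586 cpm in NOD/ShiLtJ (-0.19) and was called only in the fit without NOD/ShiLtJ replicate 2 among the 6 fits, with q = 0.0189 without A/J replicate 1, q = 0.0286 without A/J replicate 2, q = 0.0157 without A/J replicate 3, q = 0.0251 without NOD/ShiLtJ replicate 1 and q = 0.0159 without NOD/ShiLtJ replicate 3, while 51.5% of its exon bases overlap another gene. Gng13, a G protein gamma subunit, was at 16.4 ± 0.711 cpm in A/J and 19.9 ± 0.965 cpm in NOD/ShiLtJ (-0.26), with q = 0.0158 without A/J replicate 1, q = 0.0316 without A/J replicate 2 and q = 0.0269 without NOD/ShiLtJ replicate 1, and 51.6% of its exon bases overlap another gene, which makes it uncertain. Gnao1, the alpha subunit coupled to mGluR6, was at 54.2 ± 2.73 cpm in A/J and 43.8 ± 4.66 cpm in NOD/ShiLtJ (0.30), with q = 0.0254 without A/J replicate 1, q = 0.0546 without A/J replicate 2, q = 0.0138 without A/J replicate 3, q = 0.0467 without NOD/ShiLtJ replicate 1 and q = 0.0201 without NOD/ShiLtJ replicate 2. The receptor gene Grm6 was at 26.9 ± 1.97 cpm in A/J and 29.4 ± 3.003 cpm in NOD/ShiLtJ (q = 0.178) and Trpm1 at 206 ± 1.06 cpm in A/J and 219 ± 5.27 cpm in NOD/ShiLtJ (q = 0.0801), and neither passed. Counts for this list were 3, 2 and 3 without A/J replicates 1, 2 and 3 and 2, 4 and 5 without NOD/ShiLtJ replicates 1, 2 and 3.

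At the photoreceptor ribbon synapse 2 of 17 genes were called (11.8%, near the 11.4% of all genes). The median of the list was -0.0411, but -0.062 without NOD/ShiLtJ replicate 2 and -0.0169 with quantile normalization. Cplx3, a complexin of ribbon synapses (chromosome 9, 57599992 to 57606282), was at 63.5, 65.0 and 64.1 cpm in A/J and 82.4, 75.9 and 78.2 cpm in NOD/ShiLtJ (-0.29 ± 0.04, q = 7.39e-04). Dag1, dystroglycan, was at 19.5 ± 0.636 cpm in A/J and 16.3 ± 0.759 cpm in NOD/ShiLtJ (0.25), with q = 0.0175 without A/J replicate 1, q = 0.0334 without A/J replicate 2 and q = 0.0276 without NOD/ShiLtJ replicate 1. Counts for ribbon genes were 1, 1 and 2 without A/J replicates 1, 2 and 3 and 1, 3 and 3 without NOD/ShiLtJ replicates 1, 2 and 3. Of 15 bipolar cell genes 3 were called (20%, against 11.4% of all genes and 6.43% in the direction of NOD/ShiLtJ), all higher in NOD/ShiLtJ. The median of this list was -0.0264, but 3.36e-04 with quantile normalization and -0.0416 without NOD/ShiLtJ replicate 2. Grik1, a kainate receptor subunit of OFF bipolar cells, was at 42.4 ± 0.718 cpm in A/J and 52.1 ± 1.30 cpm in NOD/ShiLtJ (-0.29), and Scgn, the calcium-binding secretagogin, at 12.2 ± 0.732 cpm in A/J and 15.8 ± 0.237 cpm in NOD/ShiLtJ (-0.35). Both were called in all 6 fits without 1 library. Prdm8, a transcription factor, was at 11.97 ± 0.546 cpm in A/J and 16.3 ± 1.93 cpm in NOD/ShiLtJ (-0.41), with q = 0.0169 without A/J replicate 2, q = 0.0159 without A/J replicate 3 and q = 0.0141 without NOD/ShiLtJ replicate 1, and 29.1% of its exon bases overlap another gene. Bipolar counts were 3, 2 and 3 without A/J replicates 1, 2 and 3 and 2, 4 and 3 without NOD/ShiLtJ replicates 1, 2 and 3.

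Of 19 amacrine cell genes 3 were called (15.8%, against 11.4% of all genes and 5.01% in the direction of A/J), all higher in A/J and 1 of them in all 6 fits without 1 library. The median difference was 0.083, but 0.0539 without NOD/ShiLtJ replicate 2, and 16 of 19 differences were above 0 under each of the 3 scalings. Gad2, which makes the transmitter GABA (chromosome 2, 22622205 to 22693875), was at 19.8, 19.8 and 17.6 cpm in A/J and 12.4, 13.6 and 12.7 cpm in NOD/ShiLtJ (0.53 ± 0.06, q = 1.39e-04). Gad2 was called in all 6 fits without 1 library. Slc6a9, a glycine transporter, was at 38.6 ± 1.13 cpm in A/J and 31.97 ± 2.76 cpm in NOD/ShiLtJ (0.27), with q = 0.0164 without A/J replicate 1, q = 0.0488 without A/J replicate 2, q = 0.0212 without A/J replicate 3, q = 0.0351 without NOD/ShiLtJ replicate 1 and q = 0.0164 without NOD/ShiLtJ replicate 2, and 30.2% of its exon bases overlap other genes. Slc5a7, the choline transporter of starburst cells, was at 4.96 ± 0.340 cpm in A/J and 3.72 ± 0.378 cpm in NOD/ShiLtJ (0.34) and lost its call in each of the 6 fits, with q = 0.0150 without A/J replicate 1, q = 0.0302 without A/J replicate 2, q = 0.0334 without A/J replicate 3, q = 0.0171 without NOD/ShiLtJ replicate 1, q = 0.0106 without NOD/ShiLtJ replicate 2 and q = 0.0232 without NOD/ShiLtJ replicate 3. The amacrine count was 2, 1 and 1 without A/J replicates 1, 2 and 3 and 1, 1 and 3 without NOD/ShiLtJ replicates 1, 2 and 3. Among 9 horizontal cell genes 1 was called (11.1%, near the 11.4% of all genes, median -0.05 but 0.03 without NOD/ShiLtJ replicate 2). This was the tropomyosin Tpm3 (chromosome 3, 90072649 to 90100903), at 15.6, 15.8 and 16.3 cpm in A/J and 9.80, 9.72 and 9.51 cpm in NOD/ShiLtJ (0.66 ± 0.05, q = 6.65e-06). Tpm3 is expressed in many cell types and shares 27.0% of its 31-base words. The count for horizontal cells was 1, 1 and 1 without A/J replicates 1, 2 and 3 and 1, 2 and 1 without NOD/ShiLtJ replicates 1, 2 and 3.

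Dopamine, released by a class of amacrine cells, and neuropeptides are signals of the inner retina. Of 9 dopamine genes 4 were called (44.4% against 11.4% of all genes, median 0.02 but -3.35e-04 without NOD/ShiLtJ replicate 2), 2 in each direction, and 0 of them in all 6 fits. Drd4, the dopamine receptor of photoreceptors (chromosome 7, 141292006 to 141296465), was at 31.7, 33.3 and 33.4 cpm in A/J and 26.3, 22.2 and 26.5 cpm in NOD/ShiLtJ (0.38 ± 0.07, q = 0.00194), with q = 0.0163 without A/J replicate 2 and q = 0.0101 without A/J replicate 3. Gpr37, a G protein-coupled receptor, was at 57.2 ± 1.05 cpm in A/J and 48.6 ± 0.727 cpm in NOD/ShiLtJ (0.23), with q = 0.0153 without A/J replicate 2 and q = 0.0108 without NOD/ShiLtJ replicate 1. Th, the enzyme of the first step of dopamine synthesis, was at 0.683 ± 0.0367 cpm in A/J and 1.04 ± 0.0287 cpm in NOD/ShiLtJ (-0.28), and lost its call in each of the 6 fits, with q = 0.0137 without A/J replicate 1, q = 0.0331 without A/J replicate 2, q = 0.0198 without A/J replicate 3, q = 0.0225 without NOD/ShiLtJ replicate 1, q = 0.0162 without NOD/ShiLtJ replicate 2 and q = 0.0196 without NOD/ShiLtJ replicate 3. Slc18a2, which loads vesicles, was at 1.40 ± 0.106 cpm in A/J and 2.04 ± 0.255 cpm in NOD/ShiLtJ (-0.34), with q = 0.0253 without A/J replicate 1, q = 0.0496 without A/J replicate 2, q = 0.0166 without A/J replicate 3, q = 0.0446 without NOD/ShiLtJ replicate 1 and q = 0.0245 without NOD/ShiLtJ replicate 2. Dopamine counts were 2, 0 and 1 without A/J replicates 1, 2 and 3 and 1, 2 and 3 without NOD/ShiLtJ replicates 1, 2 and 3. For neuropeptides 4 of 12 were called (33.3% against 11.4% of all genes, median 0.02), and 0 in all 6 fits. Pdyn, the precursor of dynorphins, was at 3.17 ± 0.396 cpm in A/J and 2.19 ± 0.0504 cpm in NOD/ShiLtJ (0.38), with q = 0.0124 without A/J replicate 2, q = 0.0135 without A/J replicate 3, q = 0.0231 without NOD/ShiLtJ replicate 1 and q = 0.0130 without NOD/ShiLtJ replicate 3. Vip, vasoactive intestinal peptide, was at 3.77 ± 0.261 cpm in A/J and 2.75 ± 0.238 cpm in NOD/ShiLtJ (0.35), with q = 0.0135 without A/J replicate 1, q = 0.0175 without A/J replicate 2, q = 0.0233 without A/J replicate 3, q = 0.0214 without NOD/ShiLtJ replicate 1 and q = 0.0178 without NOD/ShiLtJ replicate 3. Npy, neuropeptide Y, was at 1.90 ± 0.207 cpm in A/J and 1.27 ± 0.143 cpm in NOD/ShiLtJ (0.35), with q = 0.0371 without A/J replicate 2, q = 0.0287 without A/J replicate 3, q = 0.0129 without NOD/ShiLtJ replicate 1, q = 0.0167 without NOD/ShiLtJ replicate 2 and q = 0.0238 without NOD/ShiLtJ replicate 3. Cartpt, the precursor of CART peptides and higher in NOD/ShiLtJ, was at 14.0 ± 0.641 cpm in A/J and 16.8 ± 0.633 cpm in NOD/ShiLtJ (-0.24), with q = 0.0193 without A/J replicate 1, q = 0.0395 without A/J replicate 2, q = 0.0238 without NOD/ShiLtJ replicate 1 and q = 0.0178 without NOD/ShiLtJ replicate 2. Counts for neuropeptides were 2, 0 and 1 without A/J replicates 1, 2 and 3 and 0, 3 and 1 without NOD/ShiLtJ replicates 1, 2 and 3.

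Of 18 ganglion cell genes 2 were called (11.1%, against 11.4% of all genes and 6.43% in the direction of NOD/ShiLtJ, median -0.05), both of them neurofilament chains of large axons and both higher in NOD/ShiLtJ. Nefh (chromosome 11, 4938754 to 4948065) was at 29.3, 27.5 and 26.7 cpm in A/J and 39.6, 34.6 and 41.3 cpm in NOD/ShiLtJ (-0.45 ± 0.07, q = 7.45e-04), and Nefl (chromosome 14, 68083863 to 68089096) at 108, 101 and 106 and 129, 125 and 129 cpm (-0.28 ± 0.04, q = 6.92e-04). Both were called in all 6 fits without 1 library, and 32.8% of the exon bases of Nefl overlap another gene. Without A/J replicate 1 or NOD/ShiLtJ replicate 2 the count for this list was 3.

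Of 21 genes of Müller glia and of gliosis, the glial response to injury, 5 were called (23.8% against 11.4% of all genes), 2 higher in A/J and 3 higher in NOD/ShiLtJ. The median of the list was 0.00950, but 0.0291 without NOD/ShiLtJ replicate 2, 0.0267 with median-ratio scaling and 0.0276 with quantile normalization. Glul, the glutamine synthetase that recycles glutamate (chromosome 1, 153899944 to 153909724), was at 523, 573 and 614 cpm in A/J and 750.1, 769 and 729 cpm in NOD/ShiLtJ (-0.40 ± 0.06, q = 8.96e-04). Edn2, an endothelin that photoreceptors release under stress (chromosome 4, 120161206 to 120167361), was at 1.11, 1.07 and 1.25 and 0.210, 0.0941 and 0.195 cpm (0.88 ± 0.07, q = 1.38e-05). All 3 A/J libraries of Edn2 lay above those of the other strains, which ranged from 0.0145 to 0.307 cpm. Serpina3n, a protease inhibitor of reactive glia, was at 1.21 ± 0.199 cpm in A/J and 2.47 ± 0.169 cpm in NOD/ShiLtJ (-0.65 ± 0.08). Slc1a3, the glial glutamate transporter, was at 78.5 ± 2.23 cpm in A/J and 67.9 ± 0.589 cpm in NOD/ShiLtJ (0.21), with q = 0.0206 without A/J replicate 2, q = 0.0141 without A/J replicate 3 and q = 0.0169 without NOD/ShiLtJ replicate 1. Car14, a carbonic anhydrase, was at 8.82 ± 0.942 cpm in A/J and 11.4 ± 0.868 cpm in NOD/ShiLtJ (-0.34), with q = 0.0290 without A/J replicate 1, q = 0.0526 without A/J replicate 2, q = 0.0325 without NOD/ShiLtJ replicate 1 and q = 0.0215 without NOD/ShiLtJ replicate 2. Glial counts were 4, 3 and 5 without A/J replicates 1, 2 and 3 and 3, 5 and 6 without NOD/ShiLtJ replicates 1, 2 and 3.

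Microglia and complement genes had a median of 0.18, and 2 of 12 were called (16.7%, against 11.4% of all genes and 5.01% in the direction of A/J), both higher in A/J. Ctss, a lysosomal protease of microglia (chromosome 3, 95526786 to 95556404), was at 2.77, 3.22 and 2.94 cpm in A/J and 1.96, 1.73 and 1.99 cpm in NOD/ShiLtJ (0.46 ± 0.07, q = 0.00110). The complement gene C4b was at 6.27 ± 0.339 cpm in A/J and 3.39 ± 0.973 cpm in NOD/ShiLtJ (0.75 ± 0.13), with q = 0.0146 without A/J replicate 2, q = 0.0109 without A/J replicate 3 and q = 0.0135 without NOD/ShiLtJ replicate 1, and shares 48.3% of its 31-base words. Counts were 2, 1 and 1 without A/J replicates 1, 2 and 3 and 1, 3 and 2 without NOD/ShiLtJ replicates 1, 2 and 3. In the list of retinal vessels 1 of 18 genes was called (5.56% against 11.4% of all genes, median 0.05 but 0.00855 without NOD/ShiLtJ replicate 2). This was the pericyte gene Rgs5, at 19.4 ± 1.63 cpm in A/J and 24.8 ± 0.685 cpm in NOD/ShiLtJ (-0.34), with q = 0.0109 without A/J replicate 3 and q = 0.0150 without NOD/ShiLtJ replicate 1. This count was 2, 1 and 0 without A/J replicates 1, 2 and 3 and 0, 1 and 1 without NOD/ShiLtJ replicates 1, 2 and 3.

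A/J and NOD/ShiLtJ carry different haplotypes of the major histocompatibility complex, whose class I genes present peptides to T cells. Of 10 tested class I and processing genes 3 were called (30% against 11.4% of all genes, median 0.16). H2-D1 (chromosome 17, 35262730 to 35267500) was at 4.24, 3.88 and 4.06 cpm in A/J and 6.54, 6.10 and 7.83 cpm in NOD/ShiLtJ (-0.62 ± 0.08, q = 4.05e-04), and 26.9% of its 31-base words are shared with other genes. Tapbp, the chaperone tapasin (chromosome 17, 33915899 to 33929293), was at 13.8, 14.7 and 14.7 and 9.16, 9.55 and 10.6 cpm (0.52 ± 0.06, q = 1.82e-04), with 29% of its exon bases overlapping other genes. H2-Q4 was at 0.819 ± 0.0657 cpm in A/J and 0.501 ± 0.0353 cpm in NOD/ShiLtJ (0.28) and lost its call in each of the 6 fits without 1 library, with q = 0.0282 without A/J replicate 1, q = 0.0239 without A/J replicate 2, q = 0.0208 without A/J replicate 3, q = 0.0276 without NOD/ShiLtJ replicate 1, q = 0.0156 without NOD/ShiLtJ replicate 2 and q = 0.0268 without NOD/ShiLtJ replicate 3, and 53% of its 31-base words are shared. The count was 2 in each of these fits. Of 12 class II genes 1 passed the filter on low values and was not called. The class II pseudogene H2-Ea-ps had 1, 2 and 1 reads in A/J and 0 in each NOD/ShiLtJ library. Among 20 interferon-stimulated genes 1 was called (5% against 11.4% of all genes, median 0.03). This was Ifit3 (chromosome 19, 34583531 to 34588732), at 0.710, 0.760 and 0.614 cpm in A/J and 2.90, 2.80 and 2.22 cpm in NOD/ShiLtJ (-1.10 ± 0.09, q = 1.15e-05), a gene with 61.8% of its 31-base words shared.

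Of 29 clock genes 4 were called (13.8%, near the 11.4% of all genes), 2 in each direction. The median of the list was -0.00522, but 0.01 with median-ratio scaling, 0.02 with quantile normalization and -0.0213 without NOD/ShiLtJ replicate 2. Hlf, a transcription factor of the clock output (chromosome 11, 90336536 to 90390896), was at 45.3, 43.9 and 40.9 cpm in A/J and 29.5, 32.6 and 35.1 cpm in NOD/ShiLtJ (0.41 ± 0.07, q = 0.00113), with q = 0.0108 without A/J replicate 2. Ciart, a repressor within the clock (chromosome 3, 95878503 to 95882252), was at 1.73, 1.76 and 1.60 and 2.57, 2.48 and 2.62 cpm (-0.40 ± 0.06, q = 0.00114), and was called in all 6 fits without 1 library. Npas2, a partner of Bmal1, was at 1.03 ± 0.201 cpm in A/J and 0.493 ± 0.117 cpm in NOD/ShiLtJ (0.44), with q = 0.0127 without A/J replicate 1, q = 0.0125 without A/J replicate 3 and q = 0.0243 without NOD/ShiLtJ replicate 1. Rora, a nuclear receptor of the clock, was at 138 ± 1.70 cpm in A/J and 160.4 ± 6.71 cpm in NOD/ShiLtJ (-0.21), with q = 0.0149 without A/J replicate 1, q = 0.0316 without A/J replicate 2, q = 0.0123 without A/J replicate 3, q = 0.0220 without NOD/ShiLtJ replicate 1 and q = 0.0137 without NOD/ShiLtJ replicate 2. The count was 2, 2 and 2 without A/J replicates 1, 2 and 3 and 2, 3 and 4 without NOD/ShiLtJ replicates 1, 2 and 3. The time of day of sampling is not given in the labels. Of 16 immediate early genes, which respond to activity within minutes, 1 was called (6.25% against 11.4% of all genes, median 0.02 but -0.04 without NOD/ShiLtJ replicate 2). This was Atf3 (chromosome 1, 191170296 to 191218040), at 2.44, 2.09 and 2.44 cpm in A/J and 3.53, 3.95 and 4.17 cpm in NOD/ShiLtJ (-0.56 ± 0.08, q = 4.77e-04). Both strains lay above the other 6, which held 0.137 to 1.15 cpm. Egr1, an activity marker of the retina, was at 1.10, 1.68 and 2.12 and 1.02, 2.90 and 2.89 cpm, overlapped between the strains and did not pass (q = 0.261).

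Among transmitter receptors, 2 of 24 glutamate receptor genes were called (8.33% against 11.4% of all genes), Grik1 as above and Grik2. Their list had a median of -0.01, but 0.00474 with quantile normalization and -0.0511 without NOD/ShiLtJ replicate 2. Grik2 was at 26.2 ± 0.745 cpm in A/J and 22.6 ± 0.164 cpm in NOD/ShiLtJ (0.21), with q = 0.0345 without A/J replicate 2, q = 0.0203 without A/J replicate 3, q = 0.0211 without NOD/ShiLtJ replicate 1, q = 0.0129 without NOD/ShiLtJ replicate 2 and q = 0.0136 without NOD/ShiLtJ replicate 3. The glutamate count was 2, 1 and 1 without A/J replicates 1, 2 and 3 and 1, 1 and 1 without NOD/ShiLtJ replicates 1, 2 and 3. Of 18 inhibitory receptor genes 3 were called (16.7% against 11.4% of all genes, median -0.06). They were led by Gabrr3, a subunit of GABA receptors (chromosome 16, 59407332 to 59464505), at 5.39, 5.96 and 6.69 cpm in A/J and 12.3, 13.2 and 12.3 cpm in NOD/ShiLtJ (-0.96 ± 0.07, q = 9.87e-06). All A/J values of Gabrr3 also lay below the other strains, which held 7.32 to 12.9 cpm. Gabrd was at 3.33 ± 0.245 cpm in A/J and 2.43 ± 0.129 cpm in NOD/ShiLtJ (0.33), with q = 0.0244 without A/J replicate 2, q = 0.0208 without A/J replicate 3 and q = 0.0299 without NOD/ShiLtJ replicate 1. The inhibitory count was 3, 1 and 2 without A/J replicates 1, 2 and 3 and 1, 4 and 4 without NOD/ShiLtJ replicates 1, 2 and 3. Of 6 gap junction genes limma called 0 in any of these fits, too few members to tell apart from the 11.4% of all genes, and 0 had an unadjusted p under 0.05.

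Of 33 potassium and related cation channel genes 5 were called (15.2% against 11.4% of all genes), 4 of them higher in NOD/ShiLtJ. The median of the list was 0.0444, but 0.0738 with quantile normalization. Kcnma1, the large-conductance calcium-activated potassium channel (chromosome 14, 23289431 to 24014492), was at 183, 185 and 190.5 cpm in A/J and 231, 238 and 241 cpm in NOD/ShiLtJ (-0.34 ± 0.04, q = 1.63e-04). Kcnma1 was called in all 6 fits without 1 library. Kcnd2 was at 5.37 ± 0.135 cpm in A/J and 7.04 ± 0.329 cpm in NOD/ShiLtJ (-0.33), with q = 0.0123 without A/J replicate 2. Kcnv2, a modulatory subunit in photoreceptors, was at 207 ± 4.90 cpm in A/J and 239.6 ± 7.85 cpm in NOD/ShiLtJ (-0.21), with q = 0.0146 without A/J replicate 1, q = 0.0331 without A/J replicate 2, q = 0.0201 without NOD/ShiLtJ replicate 1 and q = 0.0133 without NOD/ShiLtJ replicate 3. Kcnc2, higher in A/J, was at 22.6 ± 0.0686 cpm in A/J and 19.3 ± 0.315 cpm in NOD/ShiLtJ (0.22), with q = 0.0105 without A/J replicate 1, q = 0.0197 without A/J replicate 2, q = 0.0116 without A/J replicate 3 and q = 0.0150 without NOD/ShiLtJ replicate 1. The channel count was 4, 2 and 5 without A/J replicates 1, 2 and 3 and 4, 6 and 8 without NOD/ShiLtJ replicates 1, 2 and 3.

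Glo1, a glyoxalase that removes methylglyoxal (chromosome 17, 30584936 to 30626872), lies in a segment known to be duplicated in some inbred strains. It was at 96.7, 115 and 102 cpm in A/J and 29.8, 30.2 and 28.3 cpm in NOD/ShiLtJ, 3.55-fold higher in A/J by the means (1.79 ± 0.06, q = 2.82e-08). Its neighbour Btbd9 (chromosome 17, 30215524 to 30576489) was at 61.1, 61.7 and 57.7 and 44.2, 42.9 and 44.4 cpm (0.45 ± 0.04, q = 4.70e-05). Dnah8, an axonemal dynein chain next to Glo1 (30624354 to 30877366), was at 3.07 ± 0.195 cpm in A/J and 2.40 ± 0.112 cpm in NOD/ShiLtJ and did not pass (q = 0.0146), and Glp1r, a peptide hormone receptor (30901817 to 30940792), was below the filter at 0.433, 0.421 and 0.285 and 0.289, 0.255 and 0.251 cpm. Glo1 and Btbd9 were the called members, 2 of 4 tested on this list (50%, against 11.4% of all genes). For Glo1 A/J lay above and NOD/ShiLtJ below all other libraries, which held 35.8 to 96.6 cpm. Saysd1, at 1.55 ± 0.0703 cpm in A/J and 1.45 ± 0.0846 cpm in NOD/ShiLtJ (q = 0.312), and Kcnk5, at 0.0787, 0.0487 and 0.0634 and 0.0395, 0.121 and 0.0419 cpm, were listed with this segment but lie on chromosome 14. On the same stretch of chromosome 17, the gene Gm10503 (chromosome 17, 30920338 to 30963221), picked out after its values were seen, was at 10.2, 11.7 and 9.35 cpm in A/J and 0.0264, 0.0001 and 0.0001 cpm in NOD/ShiLtJ (3.49 ± 0.08, q = 1.72e-09). Gm50240, also seen first in the values, was at 16.7 ± 1.25 cpm in A/J and 8.32 ± 0.265 cpm in NOD/ShiLtJ (0.92).

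Known strain variants were read from the same table. Dysf, the membrane repair protein dysferlin whose gene is disrupted in A/J, was below the filter, at 0.0918, 0.113 and 0.0634 cpm in A/J and 0.617, 0.564 and 0.642 cpm in NOD/ShiLtJ (chromosome 6, 84008590 to 84211061). The A/J values were low and did not overlap those of NOD/ShiLtJ or of the other strains, which held 0.287 cpm or more. Tyr, the tyrosinase whose variant makes both strains albino, was at 1.23, 1.42 and 0.886 and 1.88, 0.927 and 0.642 cpm and overlapped (q = 0.460). Tyrp1, another melanin enzyme, was at 8.28 ± 2.45 cpm in A/J and 5.39 ± 4.00 cpm in NOD/ShiLtJ (q = 0.119), Cdh23, a cadherin of hair cells, at 0.785 ± 0.0581 cpm in A/J and 0.678 ± 0.111 cpm in NOD/ShiLtJ (q = 0.229) and Nnt, a mitochondrial transhydrogenase, at 7.37 ± 0.390 cpm in A/J and 7.45 ± 0.306 cpm in NOD/ShiLtJ (q = 0.474). Hc, complement C5, had at most 1 read in any A/J library and 2 or 3 reads in NOD/ShiLtJ, and Naip5, a sensor of bacterial flagellin, was at 0.0640, 0.0649 and 0.0611 and 0.0920, 0.0835 and 0.0559 cpm. Of 8 melanin genes and 4 strain variant genes tested, limma called 0, against 11.4% of all genes, too few members to tell apart from that share. At an unadjusted p under 0.05 there were 1 and 0, and 2 and 1 were called without NOD/ShiLtJ replicate 1. Tyrp1 belongs to both lists.

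Krt18, a keratin of epithelia on the list for pigment epithelium (chromosome 15, 102028180 to 102032028), was at 5.52, 5.76 and 7.01 cpm in A/J and 18.9, 17.1 and 18.1 cpm in NOD/ShiLtJ (-1.43 ± 0.08, q = 1.06e-06). It was the only called gene of 12 on that list (8.33% against 11.4% of all genes), in which 6 differences were above 0 and 6 below. Without A/J replicate 1, 5 were called, Krt18 and, higher in A/J, Rgr, Lrat, Rpe65 and Rdh5, which act in the visual cycle of the pigment epithelium. Rgr was at 7.65, 20.9 and 38.4 cpm in A/J and 6.01, 4.71 and 5.73 cpm in NOD/ShiLtJ (1.60, q = 0.0146), and Lrat at 4.19 ± 2.72 cpm in A/J and 1.55 ± 0.399 cpm in NOD/ShiLtJ (0.88, q = 0.0585). Differences were 0.61 for Rpe65 (q = 0.136) and 0.33 for Rdh5 (q = 0.135), of whose exon bases 25.6% overlap another gene. For all 4 of these genes A/J replicate 1 was the lowest A/J library and replicate 3 the highest. Hbb-bt, a beta globin chain (chromosome 7, 103812524 to 103813997), was at 0.642, 0.394 and 0.407 and 2.33, 2.43 and 2.40 cpm (-1.20 ± 0.08, q = 3.17e-06), with 59.4% of its 31-base words shared. It was the only called blood gene of 4 (25% against 11.4% of all genes), all 4 with differences below 0. Hbb-bs, the most abundant of them, was at 11.9 to 13.8 cpm in A/J and 12.02 to 14.5 cpm in NOD/ShiLtJ. Without NOD/ShiLtJ replicate 1, 2 blood genes were called. Zic1, a transcription factor of the ciliary margin, was at 3.72 ± 0.862 cpm in A/J and 1.97 ± 0.399 cpm in NOD/ShiLtJ (0.66), with q = 0.0330 without A/J replicate 2, q = 0.0241 without A/J replicate 3, q = 0.0289 without NOD/ShiLtJ replicate 1 and q = 0.0104 without NOD/ShiLtJ replicate 3. It was the only called gene of 5 for ciliary body and iris (20% against 11.4% of all genes), all 5 with differences above 0.

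Called genes were unevenly spread along the genome. Their share was lowest on chromosome 10 (6.79%) and highest on chromosome 13 (16.2%) among the autosomes. Over 436 windows of 5 Mb with at least 10 tested genes the median share was 9.52%. In 41 windows, which hold 862 tested genes, limma called 0, with 150 at an unadjusted p under 0.05, and the largest of these had 53 tested genes, while 15 windows had a share over 30%. Of 10 tested genes on chromosome 15 from 0 to 5 Mb, 6 were called (60%), and on chromosome 12 the windows from 15 to 20 and from 20 to 25 Mb had 13 of 23 (56.5%) and 12 of 27 (44.4%). On chromosome 13 from 20 to 25 Mb, 34 of 67 were called (50.7%), 23 of them higher in A/J, and in the window of the zinc finger genes on chromosome 2 19 of 48 (39.6%). The window on chromosome 13 holds a histone cluster. There H3c7, a histone H3 gene (chromosome 13, 23544052 to 23545313), was at 6.19, 5.76 and 5.50 cpm in A/J and 0.475, 0.359 and 0.358 cpm in NOD/ShiLtJ (2.29 ± 0.07, q = 1.25e-08).

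**Figure D3:**
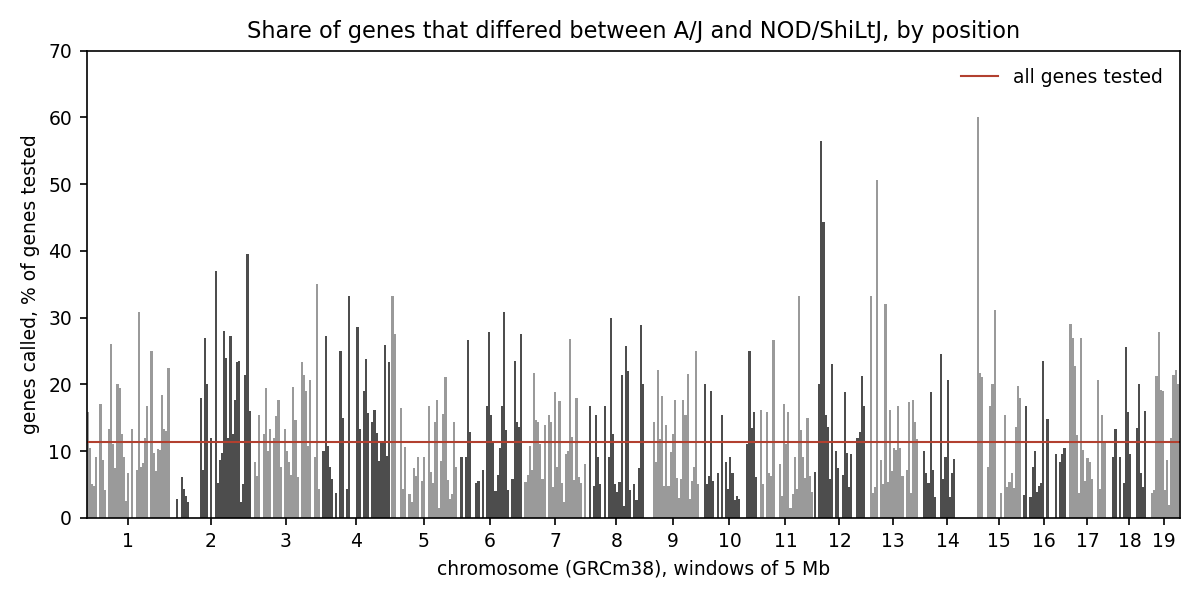
Share of tested genes called between A/J and NOD/ShiLtJ in windows of 5 Mb along the autosomes, in percent, with alternating greys for chromosomes and a line at 11.4%, the share over all genes tested. Windows with under 10 tested genes are not drawn and windows with 0 calls have no bar, and the highest bar, on chromosome 15, stands at 60%.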

How the data were processed

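The deposited values are cpm. The authors trimmed reads, aligned them to GRCm38/mm10 with STAR, quantified genes by Partek's E/M model and divided by the total of reads. The values carry a constant of 0.0001, at which genes without reads are listed. Gene values of a library here sum to between 344215 and 366570. The kit marks strand, and whether counting used it is not given in the sources used here. The study's methods name RefSeq, while the table carries an Ensembl-type annotation. The genome is that of C57BL/6J, and how strain variants change mapping was not tested. The model gives fractional counts, and 87.9% to 89.9% of low values in these libraries were whole reads within 0.02, so no count test was used. At 0.5 cpm a library holds 30.9 to 38.2 reads, and the error of counting alone is 16.2% to 18.0%.

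Of 28802 genes in the table, those averaging 0.5 cpm or more over the 6 libraries were tested with limma (version 3.58.1, R 4.3.3; lmFit, eBayes with a mean trend) on log2(cpm + 1), two-sided, with chromosomes X and Y left out. Storey's q-value (lambda 0.5, estimated null share 0.530) was limited to 0.01. Tables were made with Python 3.11.15, pandas 2.3.3, numpy 2.4.6 and matplotlib 3.10.9. The test was checked on simulated data. Shared 31-base words and exon overlap were counted in GENCODE M21 for 2266 of 2325 genes.

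Named genes were the 8 protein-coding genes with the largest difference in each direction (called, difference of at least 1, mean of at least 2 cpm, no overlap), the 3 with the largest t in each direction, from each list the called member with the largest difference in each direction, every called member with a difference of at least 1 and up to 3 members with the highest mean, the members of 3 lists (strain variants, the Glo1 segment and Plppr genes), and Xist and Y-linked genes. Not all of them are described, and some genes are not reported here. Other genes were chosen after their values were seen. The members and lists were chosen with earlier results of these data known. Alternatives were a pseudocount of 0.1, no filter, a filter at 5 cpm, quantile normalization, median-ratio scaling, Benjamini-Hochberg adjustment, a q-value limit of 0.05, a fit over all 24 libraries, no trend, chromosomes X and Y kept, and leaving out each library.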

Additional observations from a re-analysis of the deposited data

Results flagged for a closer look

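Chromosomes X and Y lie outside the comparison because sex is not labelled. When they were kept, 41 of their genes passed the same limit, 39 of 522 tested on X and 2 of 7 on Y, and 10 of the 41 were higher in A/J. Over all genes of that fit 11.3% were called, and 43.4% of the called genes were higher in A/J. Arr3 was among the 41, with a difference of -0.52.

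Y-linked genes were expressed in all 6 libraries. Ddx3y, a helicase of the Y chromosome, was at 28.6, 28.4 and 29.1 cpm in A/J and 32.4, 30.2 and 30.7 cpm in NOD/ShiLtJ, and Eif2s3y was at 38.3 to 44.2 cpm in all. Xist, the RNA of the inactive X chromosome, was at 3.12 cpm in NOD/ShiLtJ replicate 1 and at 0.223 to 0.472 cpm in the other 5 libraries, which is low beside the highest library of the other strains, at 1081 cpm. Kdm5d, a Y-linked demethylase, was at 10.3 cpm in A/J replicate 2 and at 25.3 to 33.3 cpm in the others. The cause of these values was not tested.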

How the results depend on the processing

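The counts of called genes kept their order, with more genes higher in NOD/ShiLtJ, under each alternative. Some settings moved a count by more than 1.5 times. The pseudocount of 0.1 gave 314 genes past a difference of at least 1, since it enlarges differences of low genes. A mean of at least 5 cpm, which tests 9007 genes, gave 1120 called genes, 448 higher in A/J, 672 higher in NOD/ShiLtJ and 71 past the size limit. With no filter on low values 27538 genes were tested and 1689 called, a share of 6.13% in place of 11.4%, and 1292 of the 1804 were among them. The q-value limit of 0.05 gave 3648, with 1590 and 2058 in the directions. Leaving out 1 library gave 973 to 1737 called genes, 427 to 792 higher in A/J, 546 to 1041 higher in NOD/ShiLtJ and 158 to 170 past the size limit. The lowest counts came without A/J replicate 2 and the next without NOD/ShiLtJ replicate 1, and the cause was not tested. With median-ratio scaling 48.3% of called genes were higher in A/J and with quantile normalization 49.8%, against 43.8% as reported.

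Of 119 genes described by value, 101 were called, 68 of them under every alternative that tested them, and 32 lost the call without at least 1 library. None of the 101 turned its direction. As called genes did not overlap between the strains, only median-ratio scaling and quantile normalization could have turned one. Genes that did not pass and turned sign were Gnat1 (0.0562), Trpm1 (0.00388) and Nnt (0.009514) with quantile normalization and Nnt with median-ratio scaling (0.0003585). Leaving out 1 library, Nnt ranged from -0.0430 to 0.0243, Plppr2 from -0.0817 to 0.103 and Tyr from -0.118 to 0.286. The cause was not tested. The strains are different mice and the labels give no pairing, so no paired analysis was made. The labels carry no replicate numbers, and the numbers used here follow the order of the libraries in the series and only name them.

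Limits are the 3 libraries per strain, 1 with lens RNA, and genes under about 0.5 cpm, where counting error is large. Strain differences in mapping, copy number and sex of the mice were not tested.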

Other observations

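Histone genes, many in the cluster on chromosome 13, were collected after the values were seen. Of 45 tested, 22 were called (48.9% against 11.4% of all genes), 13 higher in A/J and 9 higher in NOD/ShiLtJ, and 13 of the 22 in all 6 fits without 1 library. The count was 19, 15 and 15 without A/J replicates 1, 2 and 3 and 14, 23 and 21 without NOD/ShiLtJ replicates 1, 2 and 3. H4c1, a histone H4 gene (chromosome 13, 23760692 to 23761231), was at 17.9, 17.9 and 18.3 cpm in A/J and 6.32, 5.78 and 5.44 cpm in NOD/ShiLtJ (1.48 ± 0.06, q = 7.99e-08). H2bc3 was at 7.54 ± 0.282 cpm in A/J and 2.43 ± 0.108 cpm in NOD/ShiLtJ (1.32) and H2ac19, on chromosome 3, at 23.99 ± 2.15 cpm in A/J and 8.72 ± 0.358 cpm in NOD/ShiLtJ (1.36). Hist1h2al went the other way, at 4.63 ± 0.317 cpm in A/J and 9.87 ± 0.190 cpm in NOD/ShiLtJ (-0.95), with 81.9% of its 31-base words shared. Histone messages mostly lack a poly(A) tail, and these libraries were made from total RNA.

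The RNA component of ribonuclease P, Rpph1 (chromosome 14, 50807449 to 50807768), was at 477, 465 and 519 cpm in A/J and 1999.7, 2246 and 1949 cpm in NOD/ShiLtJ (-2.08 ± 0.07, q = 1.52e-08), with 70.2% of its 31-base words shared and 73% of its exon bases overlapping another gene. The related Rprl3 (chromosome 8, 3803069 to 3803359) was at 68.5, 69.8 and 74.05 and 339.7, 429 and 323 cpm (-2.33 ± 0.09, q = 6.72e-08). Both were high in NOD/ShiLtJ. Ccl27a, a chemokine (chromosome 4, 41769467 to 41774248), was at 0.271, 0.369 and 0.387 cpm in A/J and 4.09, 3.73 and 3.95 cpm in NOD/ShiLtJ (-1.88 ± 0.07, q = 3.98e-08), with 4.30 to 7.38 cpm in the other strains and 57% of its 31-base words shared. Of the 159 genes past the size limit, 90 were protein coding, 44 of them higher in A/J, and 23 were long non-coding RNAs.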
